A study of Mus musculus with 12 samples.

Results

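The 9 genes described here, Itga2b, Pf4, Ppbp, Gp9, Gp1ba, Gp1bb, Gp5, Clec1b and Treml1, are characteristic of platelets and of megakaryocytes, the cells that shed them. They were listed by symbol and found by GENCODE vM21 among the 49315 genes of the deposited tables, and all 9 were measured. The tables hold RNA-seq of cells sorted from forebrains of mouse embryos at E15.5 as CD31+, CD140b-, CD45- and 7AAD-, a gate meant for living brain endothelial cells. CD31 is also a platelet protein, so platelets or megakaryocytes attached to endothelium could enter this gate, and the 9 genes were examined as a readout of such material.

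Each of 3 genotypes had 4 embryos, 1 library per embryo. They were wild type, Gpr124ΔC/ΔC, in which a V5 tag and a stop codon precede the intracellular domain of the adhesion receptor GPR124, and Gpr124-/-, homozygous for a lacZ allele that removes the receptor in the whole embryo; both mutants came from heterozygous parents. No Cre driver or agent was used, and a genotype therefore also affects cells other than endothelium. The embryo labels start with a letter, whose meaning is not given in the sources used here. Wild type comprised JE1, JE6, KE8 and LE6, Gpr124ΔC/ΔC comprised JE3, JE4, LE2 and LE5, and Gpr124-/- comprised KE4, ME1, ME4 and ME5. Letter M occurred only in Gpr124-/-, and Gpr124-/- shared with wild type only the letter K, with 1 embryo each.

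Platelets arise when megakaryocytes extend and fragment their cytoplasm, and they carry RNA inherited from the megakaryocyte. Their surface receptors divide the work of stopping a bleed. The complex of GPIbα, GPIbβ, GPIX and GPV (genes Gp1ba, Gp1bb, Gp9 and Gp5) catches von Willebrand factor on exposed vessel wall, the integrin αIIbβ3 (Itga2b and Itgb3) then binds fibrinogen, and α-granules release chemokines such as platelet factor 4 (Pf4) and pro-platelet basic protein (Ppbp). CLEC-2 (Clec1b) is the receptor for podoplanin, which is exposed on cells outside the vessel, and mouse embryos without CLEC-2 are known to bleed into the brain. TLT-1 (Treml1) is a receptor of the α-granule membrane that reaches the surface on activation. Transcription of such genes in megakaryocytes is known to depend on GATA1, on the ETS factor FLI1, on RUNX1 and on NFE2.

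The promoters of the 3 genes in which the searched letters of both the GATA and the ETS family were found are shown. That of Clec1b, in which the searched ETS letters were not found, is added. Each line gives the 100 bases before the RefSeq transcription start (assembly GRCm38.p6) on the gene's own strand. Capitals mark GATAA or its reverse complement TTATC, and the ETS letters GGAAG or their reverse complement CTTCC. Shorter forms such as GATA and GGAA were not searched. The windows are chr6:87777970-87778069 on the plus strand, chr11:70639022-70639121 on the plus strand, chr16:30310782-30310881 on the minus strand and chr6:129397197-129397296 on the plus strand.
Gp9: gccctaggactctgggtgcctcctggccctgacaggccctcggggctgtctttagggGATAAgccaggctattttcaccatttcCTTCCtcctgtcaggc
Gp1ba: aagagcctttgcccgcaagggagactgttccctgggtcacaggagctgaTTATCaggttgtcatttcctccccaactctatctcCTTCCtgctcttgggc
Gp5: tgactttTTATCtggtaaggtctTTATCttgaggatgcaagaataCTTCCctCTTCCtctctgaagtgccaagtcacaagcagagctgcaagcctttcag
Clec1b: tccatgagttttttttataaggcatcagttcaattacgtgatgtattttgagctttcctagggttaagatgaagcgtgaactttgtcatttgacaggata
In Gp9, GATAA began 43 bases and CTTCC 16 bases before the start. In Gp1ba, TTATC began 51 bases and CTTCC 16 bases before the start. In Gp5, both copies of TTATC, at 93 and 77 bases, lay upstream of both copies of CTTCC. The Clec1b window held neither string in full, and 3 matches to the GATA letters began further upstream, at 103, 188 and 200 bases.

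Over the 250 bases before the start, all 9 genes had a RefSeq promoter entry. The ETS letters GGAAG were found in 8 of the 9, all but Clec1b, against 63.6% of 27025 promoters searched the same way on both strands. The GATA letters GATAA were found in 4 of 9 (Gp9, Gp1ba, Gp5 and Clec1b) against 23.0%, and both strings in 3 of 9 against 13.3%. The RUNX letters TGTGGT occurred in 1 promoter (Gp9; 14.2% of all), and the NFE2 letters TGAGTCA in none (4.4% of all). These short matches describe letters, not bound sites.

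In mm10 coordinates, Pf4 (ENSMUSG00000029373, chr5:90772435-90773383) and Ppbp (ENSMUSG00000029372, chr5:90768518-90770063) were neighbours on the plus strand, 2372 bases apart. Itga2b (ENSMUSG00000034664) lay at chr11:102453297-102470122 and Gp1ba (ENSMUSG00000050675) at chr11:70639122-70642036. Gp9 (ENSMUSG00000030054) lay at chr6:87778072-87779768, Treml1 (ENSMUSG00000023993) at chr17:48359916-48367174 and Gp5 (ENSMUSG00000047953) at chr16:30307686-30310779. Exons of Gp1bb and Clec1b overlapped those of other genes on their own strand. Gp1bb (ENSMUSG00000050761, chr16:18620319-18622403) shared 1902 exonic bases with the septin gene Sept5 and 867 with the coding gene Gm49601, not analysed here, and Clec1b (ENSMUSG00000030159, chr6:129397297-129409335) shared 184 exonic bases with Clec9a. How reads in shared bases were assigned is not given in the sources used here, so Gp1bb counts are uncertain.

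The libraries held 13877572 to 22551163 counts each. Transcript levels of Gpr124 (Adgra2) were 28.3 to 51.1 TPM (transcript abundance scaled for gene length and library size) in wild type, 34.1 to 63.4 TPM in Gpr124ΔC/ΔC and 4.03 to 6.29 TPM in Gpr124-/-, so the 4 libraries labelled Gpr124-/- were the 4 lowest. Endothelial markers were high in every library, where 10 endothelial genes summed to 4934 to 7444 TPM, with Pecam1, which encodes CD31, at 414 to 857 TPM. Ptprc, which encodes the CD45 used to exclude leukocytes, reached at most 0.0822 TPM. Erythroid transcripts, mainly globins, were abundant throughout and are taken up below.

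The 4 Gpr124-/- libraries did not form 1 group for the platelet genes. The 3 libraries of letter M lay above every wild-type library for 8 of the 9 genes, while KE4 lay within the wild-type range for 7, above it for Pf4 and below it for Clec1b. How many of all tested genes placed these libraries in the same way was not counted. Summed over the 9 genes, KE4 had 272 CPM (read counts scaled to library size), against a mean of 1059 CPM for the 3 letter M libraries, 3.89 times as much. KE8, the wild-type embryo with the same letter as KE4, had 201 CPM. Since letter M holds no embryo of another genotype, the letter and the knockout cannot be told apart in these 3 embryos, and fits without them or with the letter as a term are given for the 9 genes and for the counts of the platelet and erythroid lists.

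**Figure D1:**
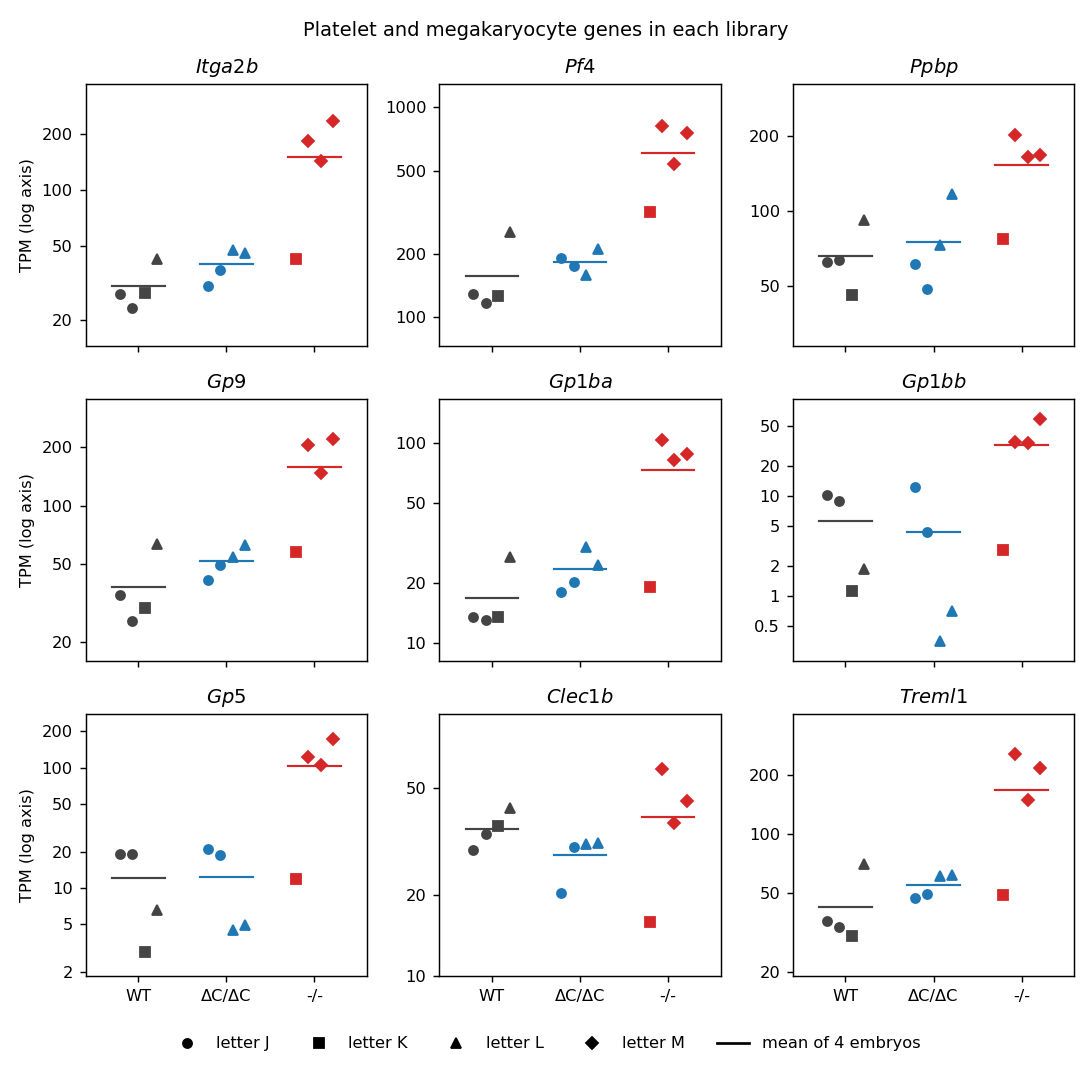
TPM (log axis) of the 9 genes in each of the 12 libraries by genotype, marker shape giving the label letter and the line the mean of 4 embryos. The 3 letter M libraries sit above all wild-type libraries in every panel but Clec1b, and KE4, the square in the Gpr124-/- column, sits apart from them.

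In Gpr124-/- against wild type, 7 of the 9 genes rose, with fold changes of 2.27 to 8.29, and none was called lower (edgeR quasi-likelihood test over all 12 libraries, adjusted p under 0.05 and a change of over 1 on the log2 scale). Over all 16637 genes tested, 5.67% were called higher and 4.21% lower. The 2 that were not called were Gp1bb and Clec1b. Of the 9, Pf4 alone had CPM ranges that did not overlap between the genotypes, against 11.1% of tested genes that were higher without overlap. The median log2 fold change of the 9 was 2.01, and that of all tested genes was -0.01. When the letter was added to the fit as a term, 2 of the 9 were called, Gp5 higher and Clec1b lower, against 2.98% of genes called higher and 2.11% lower. Without the 3 letter M libraries, Clec1b alone was called, and it was lower (1.25% of genes were called higher and 1.55% lower). In both of these fits the Gpr124-/- level comes from KE4 alone, which is then assumed to vary like the other libraries. These are bulk libraries, so more platelets and more RNA per platelet cannot be told apart.

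**Figure D2:**
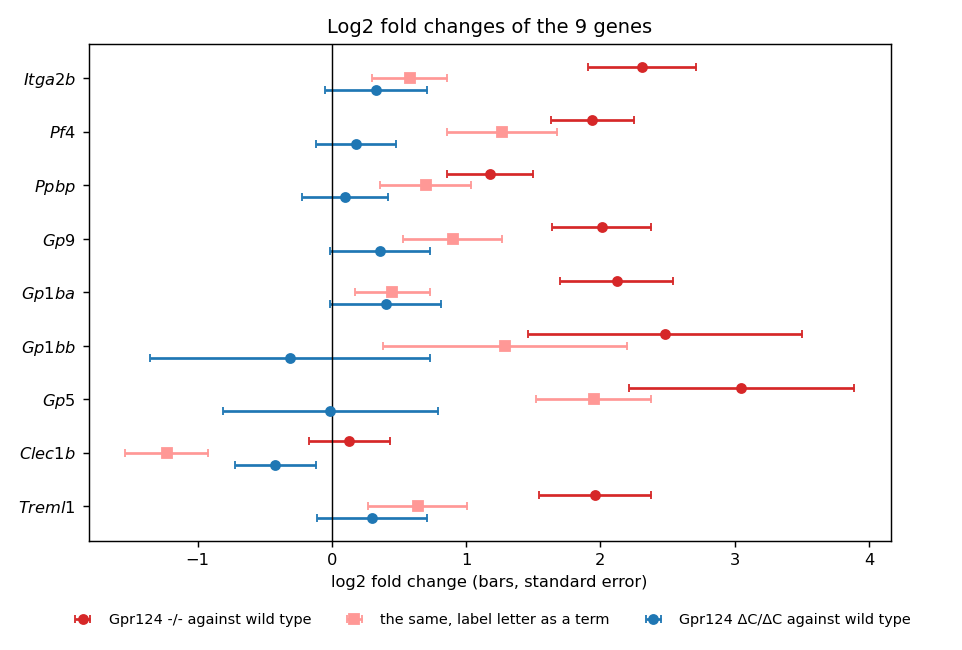
Log2 fold changes (points) with standard errors (bars) of the 9 genes for Gpr124-/- against wild type, the same with the letter added as a term, and Gpr124ΔC/ΔC against wild type. Red circles lie above 1 for all genes but Clec1b (0.13), and the letter term moves every one of them towards lower values.

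Itga2b, which encodes the integrin chain αIIb, had 27.5, 23.1, 27.7 and 42.7 TPM in wild-type JE1, JE6, KE8 and LE6. It had 30.4, 36.9, 47.4 and 45.9 TPM in Gpr124ΔC/ΔC JE3, JE4, LE2 and LE5. In Gpr124-/- it had 42.7 TPM in KE4 and 184, 143 and 234 TPM in ME1, ME4 and ME5. KE4 thus matched the highest wild-type library, and the other 3 were far above it. The log2 fold change in Gpr124-/- was 2.31 (SE 0.40; edgeR adjusted p = 0.00112), 0.58 (SE 0.28; edgeR adjusted p = 0.339) with the letter as a term and 0.4 (SE 0.25; edgeR adjusted p = 0.585) without the letter M libraries.

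The transcripts of the von Willebrand factor receptor were present in every library but did not keep a fixed ratio. Gp9 encodes GPIX, the small subunit required for surface assembly of the complex. It had 35.1, 25.7, 29.9 and 63.5 TPM in wild type and 41.5, 49.6, 54.3 and 62.6 TPM in Gpr124ΔC/ΔC, in the order of embryos given above. In Gpr124-/- it had 57.7 TPM in KE4 and 203, 146 and 219 TPM in the letter M embryos. The 3 letter M values exceeded all others, and KE4 fell below LE6. The log2 fold change was 2.01 (SE 0.37; edgeR adjusted p = 0.00196). It was 0.9 (SE 0.37; edgeR adjusted p = 0.213) with the letter as a term and 0.49 (SE 0.38; edgeR adjusted p = 0.679) without the letter M libraries.

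Gp1ba encodes GPIbα, the subunit that binds von Willebrand factor. Its wild-type values were 13.5, 13, 13.5 and 27 TPM, and its Gpr124ΔC/ΔC values were 18.1, 20.3, 30.3 and 24.7 TPM. KE4 had 19.0 TPM, and ME1, ME4 and ME5 had 104, 81.8 and 88.5 TPM. LE6 was the high library of wild type, and KE4 lay below it. The log2 fold change in Gpr124-/- was 2.12 (SE 0.42; edgeR adjusted p = 0.00316). It was 0.45 (SE 0.28; edgeR adjusted p = 0.501) with the letter as a term and 0.09 (SE 0.37; edgeR adjusted p = 0.966) without the letter M libraries.

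Gp5, which encodes GPV, the loosely attached subunit and a thrombin substrate, had the largest fold change of the 9. Wild-type JE1, JE6, KE8 and LE6 had 19.2, 19.3, 2.95 and 6.51 TPM, and Gpr124ΔC/ΔC JE3, JE4, LE2 and LE5 had 21.2, 18.7, 4.48 and 4.96 TPM. KE4 had 11.8 TPM, and ME1, ME4 and ME5 had 123, 104 and 174 TPM. In both of the first genotypes the letter J embryos were high and the letter K and L embryos low. The log2 fold change in Gpr124-/- was 3.05 (SE 0.84; edgeR adjusted p = 0.0208). With the letter as a term it was 1.95 (SE 0.43; edgeR adjusted p = 0.0143), which rests on 150 counts in KE4 against 43 in KE8, although KE4 was below both letter J wild-type embryos. Without the letter M libraries the sign turned (-0.16, SE 1.14; edgeR adjusted p = 0.979). The call was lost when LE6 or ME5 was left out (highest adjusted p = 0.0625).

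Gp1bb, which encodes GPIbβ, the subunit disulfide-linked to GPIbα, was the least abundant of the 9 in all 3 genotypes. Wild type had 10.2, 8.94, 1.12 and 1.86 TPM, and Gpr124ΔC/ΔC had 12.1, 4.31, 0.356 and 0.711 TPM, the last 2 from 3 and 7 counts. KE4 had 2.85 TPM, and the letter M embryos had 34.1, 33.9 and 58.1 TPM. The letter M embryos stood above all others, and the letter J embryos of the other genotypes came next. The difference in Gpr124-/- was not called (log2 fold change 2.48, SE 1.02; edgeR adjusted p = 0.115; with the letter as a term 1.29, edgeR adjusted p = 0.568, and without the letter M libraries -1.1, edgeR adjusted p = 0.881). Sept5, whose exon it shares, moved the other way in Gpr124-/-, from 9.06 to 11.9 TPM in wild type to 4.64 to 6.35 TPM (log2 fold change -0.92, edgeR adjusted p = 0.00824, under the fold threshold).

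Gp5 and Gp1bb differed between letter J and the other letters within wild type (K and L) and within Gpr124ΔC/ΔC (L). Relative to Itga2b in the same library, Gp5 was at 0.508 to 0.835 in the 4 letter J libraries, at 0.106 to 0.277 in the 2 of letter K, at 0.0945 to 0.152 in the 3 of letter L and at 0.666 to 0.746 in the 3 of letter M. Gp1bb was at 0.117 to 0.398, 0.0404 to 0.0668, 0.00752 to 0.0435 and 0.185 to 0.249 in the same order. For both genes, letters J and M were thus above letters K and L with no overlap. Gp9, Gp1ba and Treml1 spanned at most 1.79-fold over all 12 libraries in this ratio, Pf4 2.29-fold and Ppbp 3.85-fold (0.715 to 1.15 in letter M, which is all knockout, below the other letters, and 1.32 to 2.75 in letter J), against 8.83-fold for Gp5 and 52.9-fold for Gp1bb. Clec1b spanned 7.62-fold, with the 4 Gpr124-/- libraries lowest.

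Among the 8 wild-type and Gpr124ΔC/ΔC libraries, which hold 4 of letter J and 4 of letters K and L with both genotypes equally in each, letter J was higher by 2.21 on the log2 scale for Gp5 (13.6 to 18.1 CPM against 2.22 to 4.88 CPM) and by 3.13 for Gp1bb (2.67 to 8.85 CPM against 0.211 to 1.19 CPM). Of all tested genes, 0.583% had a larger difference than Gp5 and 0.0661% a larger one than Gp1bb. The other 7 genes differed by -0.38 to -0.13. Transcript GC content was 62.0% for Gp1bb and 59.3% for Gp5, the highest of the 9, but Gp9 at 58.3% and Itga2b at 58.2% showed no such excess. Tested genes of 55 to 60% GC had a median difference of 0.01, those of 60 to 65% of 0.27 and those above 65% of 0.96. The part of the letter or of base composition in the knockout fold change of Gp5 and Gp1bb was not tested.

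**Figure D3:**
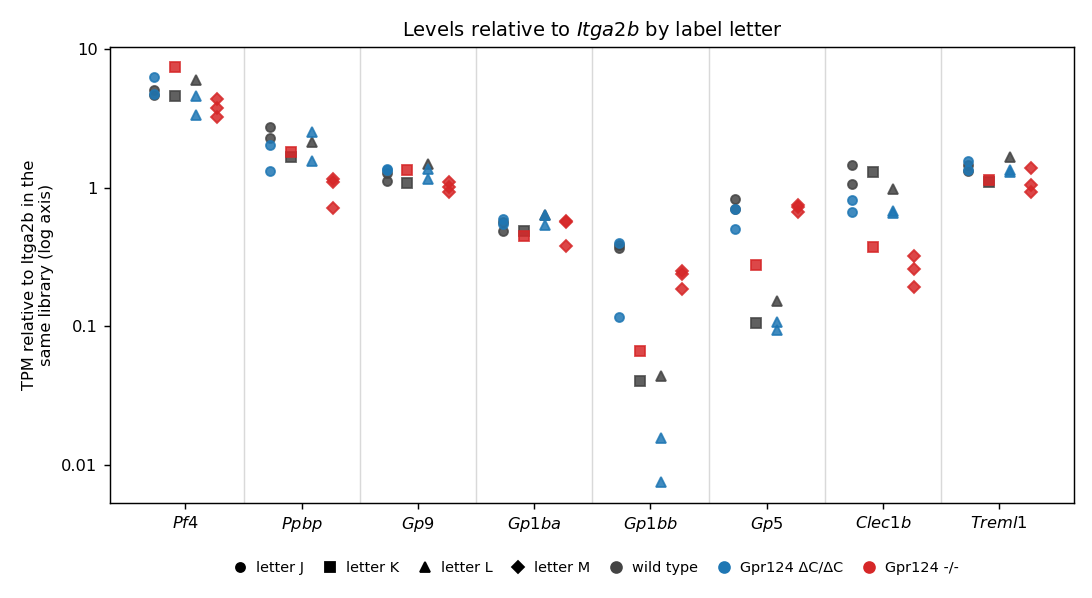
TPM of 8 of the genes relative to Itga2b in the same library (log axis), arranged by label letter J, K, L and M from left to right within each gene and coloured by genotype. Gp5 and Gp1bb are high for letters J and M and low for K and L. Letter M is all Gpr124-/-, and no Gpr124-/- library has letter J. Clec1b is low in all 4 Gpr124-/- libraries.

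Of the granule chemokine genes, Pf4 was the most abundant of the 9 in each genotype. It had 129, 117, 127 and 255 TPM in wild type and 191, 175, 160 and 212 TPM in Gpr124ΔC/ΔC. It had 316 TPM in KE4 and 811, 538 and 758 TPM in ME1, ME4 and ME5. All 4 Gpr124-/- libraries were above all 4 wild-type libraries, for this gene alone. The log2 fold change was 1.94 (SE 0.31; edgeR adjusted p = 0.000696). It was 1.27 (SE 0.41; edgeR adjusted p = 0.0914) with the letter as a term and 0.91 (SE 0.35; edgeR adjusted p = 0.261) without the letter M libraries. The exact two-sided permutation test of the TPM gave p = 0.0286, the smallest that 70 orders of 4 against 4 can give, as it did for Pf4 against Gpr124ΔC/ΔC and for none of the other 25 of the 27 tests of single genes, which are not adjusted.

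Pf4 transcripts are also known from some macrophages, although the CD45- gate is meant to remove macrophages. Of the 12 macrophage and microglia markers 4 were highest in KE4, the complement genes and Aif1, each below the count filter and not tested. C1qa, C1qb and C1qc, singled out after their values were seen, had 5.16, 6.84 and 3.13 TPM there, against at most 1.09, 1.94 and 1.40 TPM in the other 11 libraries. Tyrobp, at 3.89 TPM in KE4, and Cd68, at 7.43 TPM, did not exceed the highest of the other libraries (3.9 and 9.18 TPM). In the 3 letter M libraries, with the highest Pf4, C1qa reached at most 0.315 TPM and Tyrobp was at 0. All 12 markers together summed to 17.3 to 25.5 TPM in wild type, 24.8 to 49.5 TPM in Gpr124ΔC/ΔC and 42.5 to 75.1 TPM in Gpr124-/-. Fcer1g, which platelets also use as the partner of the collagen receptor GPVI, gave 25.3 of the 54.8 TPM in KE4 and 39.0 to 68.6 TPM in letter M. Each of the other markers stayed below its highest wild-type library in letter M, for example Cd68 at 2.2 to 6.11 TPM against at most 7.45 TPM. The part of macrophage RNA in the Pf4 level of KE4 was not tested.

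Ppbp, the second chemokine gene, had 62.5, 63.5, 46.0 and 91.9 TPM in wild type and 61.4, 48.7, 73.2 and 117 TPM in Gpr124ΔC/ΔC. It had 77.1 TPM in KE4 and 202, 165 and 167 TPM in the letter M embryos. KE4 was again inside the wild-type range, and LE5 of Gpr124ΔC/ΔC was the highest library outside letter M. The log2 fold change in Gpr124-/-, 1.18 (SE 0.32; edgeR adjusted p = 0.0196), was the smallest of the 7 called. It was 0.7 (SE 0.34; edgeR adjusted p = 0.321) with the letter as a term and 0.12 (SE 0.43; edgeR adjusted p = 0.959) without the letter M libraries. The call was lost when JE1, KE8 or ME1 was left out (lowest log2 fold change 0.99, highest adjusted p = 0.0682).

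Treml1 followed Itga2b and Gp9. Wild type had 36.2, 33.7, 30.4 and 70.8 TPM, Gpr124ΔC/ΔC had 47.4, 49.9, 61.6 and 62.1 TPM, KE4 had 48.8 TPM and the letter M embryos had 254, 149 and 217 TPM. LE6 was above the other wild-type libraries, and the letter M embryos were above LE6. The log2 fold change in Gpr124-/- was 1.96 (SE 0.42; edgeR adjusted p = 0.00493). It was 0.64 (SE 0.37; edgeR adjusted p = 0.457) with the letter as a term and 0.09 (SE 0.38; edgeR adjusted p = 0.965) without the letter M libraries.

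Clec1b did not follow the others. It had 29.3, 33.7, 36.1 and 42.0 TPM in wild type and 20.3, 30.2, 31.0 and 31.1 TPM in Gpr124ΔC/ΔC. In Gpr124-/- it had 15.9 TPM in KE4, the lowest of all 12 libraries, and 59.1, 37.1 and 44.7 TPM in the letter M embryos. The knockout libraries thus fell on both sides of wild type, and the log2 fold change was 0.13 (SE 0.30; edgeR adjusted p = 0.816). Within letter K, KE4 had 0.426 of the CPM of KE8. Clec1b fell in the fit with the letter as a term (log2 fold change -1.23, SE 0.31; edgeR adjusted p = 0.0294) and in that without letter M (-1.26, SE 0.21; edgeR adjusted p = 0.0113). Relative to Itga2b it was at 0.191 to 0.372 in the 4 Gpr124-/- libraries and at 0.656 to 1.46 in the other 8. Clec9a, which shares 184 bases with it, stayed between 5.27 and 11.1 TPM in all libraries. The genes of 3 signaling proteins known to act below CLEC-2 were not called (Syk log2 fold change 0.04, Lcp2 0.02, Plcg2 0.27). With the letter as a term their log2 fold changes were -0.3, -0.94 and 0.02. Lcp2, like Clec1b, was lowest in KE4, at 10.6 TPM.

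In Gpr124ΔC/ΔC against wild type, none of the 9 genes was called, in a comparison that called 0.89% of genes higher and 1.03% lower. None had an unadjusted edgeR p under 0.05, and DESeq2 also called none. Of the log2 fold changes 6 were positive, from 0.1 for Ppbp to 0.4 (SE 0.41) for Gp1ba, and 3 were negative, Gp5 at -0.01, Gp1bb at -0.31 and Clec1b at -0.42. Within letter L, where LE6 is the single wild-type library, 5 of those 6 were negative on the log2 CPM scale (Pf4 -0.55, Treml1 -0.3, Gp9 -0.22, Gp1ba -0.08 and Ppbp -0.05), and Itga2b was at 0.02; within letter J Ppbp alone of the 6 was negative (-0.23). The Clec1b difference (SE 0.30; edgeR adjusted p = 0.644) was the one whose CPM ranges did not overlap, lower in all 4 Gpr124ΔC/ΔC embryos, where 6.03% of tested genes were lower without overlap; in TPM the ranges overlapped. Within letter J it was at 0.761 and within letter L at 0.688 of the wild-type CPM. Summed over the 9 genes, Gpr124ΔC/ΔC embryos had 1.11 times the wild-type CPM within letter J and 0.834 times within letter L. Standard errors of the 9 log2 fold changes were 0.30 to 1.04, so a change of the size of those errors was not detectable here. Larger changes could be missed too, since a call needed over 1 on the log2 scale and an adjusted p under 0.05.

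Gpr124-/- against Gpr124ΔC/ΔC called 6 of the 9 genes higher, against 2.67% of all tested genes, and none lower (1.94%). This comparison shares the knockout libraries with the first and has no letter in common between its groups. The letter and the genotype therefore cannot be told apart from its libraries alone. The fit with the letter as a term links its groups only through wild type. The called genes were Gp5 (log2 fold change 3.06), Itga2b (1.98), Pf4 (1.76), Gp1ba (1.72), Treml1 (1.66) and Gp9 (1.65). Ppbp (1.08, edgeR adjusted p = 0.0549), Gp1bb (2.8, edgeR adjusted p = 0.125) and Clec1b (0.55, edgeR adjusted p = 0.307) were not. Pf4 was again the gene without overlap in CPM, against 7.03% of tested genes that were higher without overlap. Leaving out ME1, ME5 or JE4 reduced the 6 calls to 2, 3 and 3. Without the letter M libraries none of the 9 was called (0.0541% of genes were called higher and 0.0379% lower), and with the letter as a term Gp5 alone was (0.962% higher and 0.295% lower over all genes).

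The order of the levels was led by Pf4 in each genotype (157 ± 65.2 TPM in wild type, 185 ± 22 TPM in Gpr124ΔC/ΔC and 606 ± 226 TPM in Gpr124-/-, SD, n = 4). In wild type Ppbp (66.0 ± 19.1 TPM), Treml1 (42.8 ± 18.8 TPM), Gp9 (38.6 ± 17.1 TPM), Clec1b (35.3 ± 5.31 TPM) and Itga2b (30.2 ± 8.57 TPM) came next, with spreads that overlapped between neighbours. Gp9 exceeded Clec1b in 2 of 4 wild-type libraries and Gp1ba exceeded Gp5 in 2 of 4, so these neighbours cannot be ordered. In Gpr124-/-, Treml1 (167 ± 90.2 TPM), Gp9 (156 ± 72.7 TPM), Ppbp (153 ± 53.2 TPM) and Itga2b (151 ± 81.1 TPM) could not be told apart. Clec1b moved from the fifth place in wild type to the eighth in Gpr124-/-, at 39.2 ± 18 TPM, and Gp5 from the eighth to the sixth. These Gpr124-/- places rest on the letter M libraries; in KE4 Gp5 (11.8 TPM) was still below Clec1b (15.9 TPM) and Gp1ba (19.0 TPM).

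Other genes of platelets and megakaryocytes were taken from 3 lists that do not hold the 9. In Gpr124-/- 28 of the 39 tested rose and none fell, with a median log2 fold change of 1.79 (5.67% of all tested genes were called higher and 4.21% lower); with the letter as a term 2 of 39 were called higher (median 0.54; 2.98% of all genes), and without letter M 2 of 40 (median 0.30; 1.25% of all genes). They were Rasgrp2, an activator of the integrin switch, and Clu, which encodes clusterin, higher in both of these fits (Rasgrp2 log2 fold change 1.16 and 1.15, edgeR adjusted p = 0.01 and 0.00156; Clu 1.12 and 1.09, edgeR adjusted p = 0.0482 and 0.012). In Gpr124ΔC/ΔC none of the 39 was called (median 0.29; 0.89% of all genes were called higher and 1.03% lower), and against Gpr124ΔC/ΔC 26 were higher in Gpr124-/- (median 1.44; 2.67% of all genes). By edgeR, none of these calls against Gpr124ΔC/ΔC was kept with the letter as a term (0 of 39, median 0.23) or without letter M (0 of 40, median 0.01).

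Of 17 receptor and signaling genes, 12 rose in Gpr124-/-. Itgb3, the β3 partner of αIIb, rose from 26.3 to 115 mean TPM (log2 fold change 2.12, SE 0.43; edgeR adjusted p = 0.00356), with 34.6 TPM in KE4 against at most 42.4 TPM in wild type, and 0.54 (edgeR adjusted p = 0.315) with the letter as a term. The integrin activator kindlin-3 (Fermt3) rose by a log2 fold change of 1.72, the ADP receptors P2ry1 and P2ry12 by 2.26 and 2.57, the thromboxane receptor Tbxa2r by 1.55 and the collagen receptor Gp6 by 1.79. With the letter as a term these 5 had 0.54, 0.77, 0.53, 0.76 and 0.58, and none was called. The 5 not called were Pear1, Plcg2, Lcp2, Syk and the thrombin receptor F2rl3 (0.88, edgeR adjusted p = 0.00325, under the fold threshold). Pear1, at 113 TPM in wild type, is also an endothelial gene.

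Of 13 tested granule and cytoskeletal genes, 10 rose. The platelet β1-tubulin gene Tubb1 went from 83.8 to 375 mean TPM (log2 fold change 2.15), thrombospondin-1 (Thbs1) from 73.5 to 380 mean TPM (2.36), and platelet 12-lipoxygenase (Alox12) from 24.9 to 134 mean TPM (2.41). These means rest on letter M; KE4 had 106 TPM of Tubb1 and 112 TPM of Thbs1, under the wild-type maxima of 123 and 113 TPM, and 49.5 TPM of Alox12, above 32.1 TPM. With the letter as a term the log2 fold changes were 0.53, 0.62 and 0.81, and none was called. The 3 not called, Vwf (0.84), Mmrn1 (-0.50) and Srgn (-0.48), encode proteins that endothelium also makes. Selp, the P-selectin gene, was below the count filter and reached at most 1.81 TPM.

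Of 9 megakaryocyte regulators, 6 rose. Gata1 went from 14.3 to 92.0 mean TPM (log2 fold change 2.68, edgeR adjusted p = 0.00068), Nfe2 from 19.0 to 89.5 mean TPM (2.22) and Gfi1b from 8.45 to 41.4 mean TPM (2.28). KE4 had 23.0, 26.3 and 9.55 TPM of these against wild-type maxima of 20.1, 24.6 and 13.4 TPM, and with the letter as a term the log2 fold changes were 0.67, 0.52 and 0.95, none called. Fli1 (-0.42) and Tal1 (0.59), both also active in endothelium, and Zfpm1 (0.73) were not called. Of the genes for ligands and chemokine receptors, Pdpn (podoplanin) at 0.903 to 2.5 mean TPM per genotype and Fn1 (fibronectin) passed the count filter and were not called; Fn1 had a log2 fold change of -0.93 (edgeR adjusted p = 0.00392), under the fold threshold, and passed it with the letter as a term (-1.21, edgeR adjusted p = 0.0201). Fgg, Cxcr2 and Cxcr3 were at most 0.325 TPM in Gpr124-/-.

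**Figure D4:**
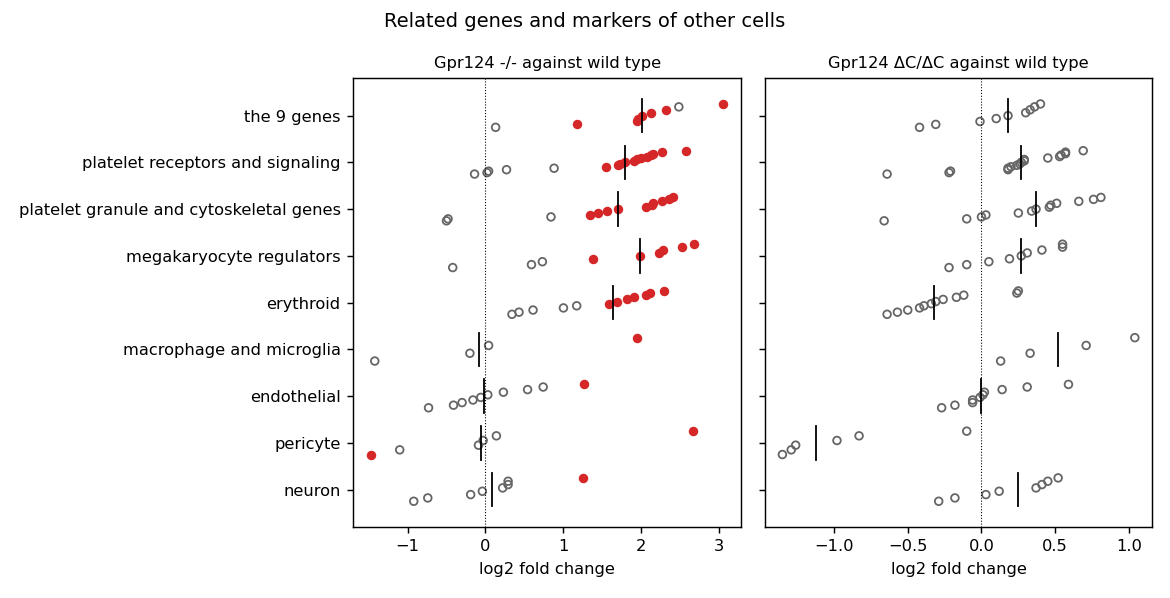
Log2 fold changes of single genes (points) by list, filled red where called, with the list median as a black line, for Gpr124-/- (left) and Gpr124ΔC/ΔC (right) against wild type, on separate horizontal scales. The 3 platelet lists and the erythroid list have medians between 1.64 and 1.98 on the left, endothelial genes centre on -0.02, and no gene of these lists is filled on the right.

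Red cell transcripts rose in the same genotype, and they split the embryos in another way. Of 12 tested erythroid genes, 7 rose in Gpr124-/- against wild type (median log2 fold change 1.64; 5.67% of all genes), among them Hbb-bs (1.82) and Alas2, the first enzyme of erythroid heme synthesis (1.91). With the letter as a term none of the 12 was called, although Hba-a1, Hbb-bt, Hbb-bs and Alas2 had log2 fold changes of 1.16, 1.07, 1.17 and 1.17 there (edgeR adjusted p = 0.26, 0.288, 0.227 and 0.167), and without letter M Hbb-bs was higher (1.36, edgeR adjusted p = 0.046) and Epor lower (-1.15, edgeR adjusted p = 0.048), where 1.25% of all genes were called higher and 1.55% lower. The 13 erythroid genes summed to 7124 to 11880 TPM in wild type and 5494 to 9970 TPM in Gpr124ΔC/ΔC. They summed to 25269 TPM in KE4 and to 54517, 17882 and 35622 TPM in ME1, ME4 and ME5. KE4 was therefore above ME4 in erythroid transcripts, while the 9 platelet genes summed to 592 TPM in KE4 and to 1397 TPM in ME4. GATA1, NFE2 and GFI1B also act in red cell precursors, and Gata1 followed the platelet pattern, with 23.0 TPM in KE4 and 83.4 to 136 TPM in the letter M embryos. The paper describes severe forebrain bleeding in Gpr124-/- embryos and mild or no bleeding in Gpr124ΔC/ΔC embryos, in images from an earlier embryonic day. Whether blood inside or outside the vessels contributed to these levels was not tested.

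**Figure D5:**
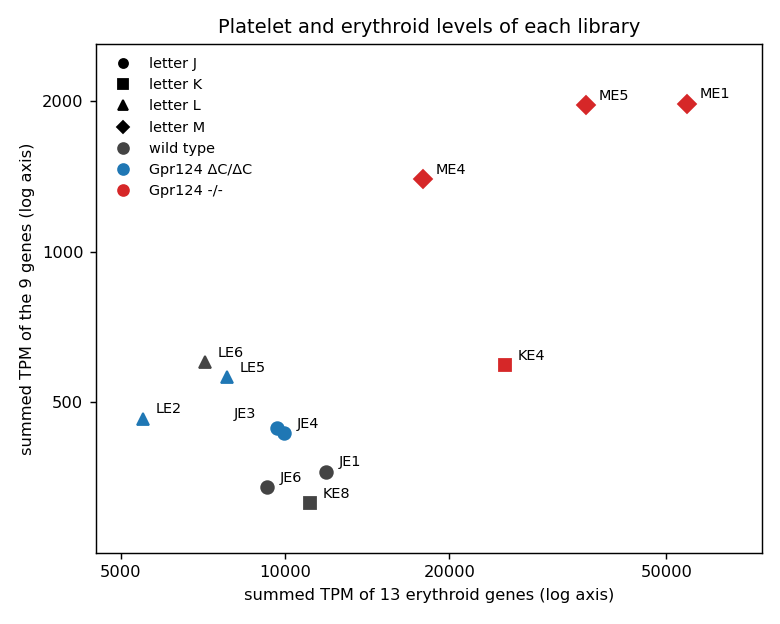
Summed TPM of the 9 platelet and megakaryocyte genes against summed TPM of 13 erythroid genes in each library (both axes log), labelled by embryo. The 4 Gpr124-/- libraries have the 4 highest erythroid sums, but KE4, at 592 TPM of platelet genes, lies level with wild-type LE6 at 601 TPM.

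Markers of other cells that the sort could hold were counted in Gpr124-/- against wild type, where 5.67% of all genes were called higher and 4.21% lower. Of 10 endothelial genes 1, Emcn, was called higher, and 5 of the 10 log2 fold changes were positive. Pecam1 itself had a log2 fold change of 0.54 (edgeR adjusted p = 0.00778), and 0.32 with the letter as a term. Tek had -0.73 (edgeR adjusted p = 0.00795). Both were under the fold threshold. Of 6 pericyte genes 1 was higher (Abcc9) and 1 lower (Rgs5), and of 4 tested macrophage genes 1 was higher (Fcer1g). The sum of the 12 macrophage markers was above wild type in all 4 libraries, as given with Pf4. Fcer1g alone gave 39.0 to 68.6 TPM of it in letter M, and each other marker stayed below its wild-type maximum there. Of 8 neuronal genes 1 was higher (Stmn2), and 1 of 6 progenitor genes (Slc1a3) and 1 of 4 tested fibroblast genes (Pdgfra) were lower. The letter term moved log2 fold changes from 1.26 to 1.08 for Emcn, 2.66 to 1.42 for Abcc9 and 1.94 to 0.78 for Fcer1g. It moved Stmn2 from 1.25 to 0.54, Rgs5 from -1.47 to -1.21, Slc1a3 from -2.15 to -1.93 and Pdgfra from -2.55 to -3.45. Neurod6 went from 0.29 to 1.87 and Dcn from -1.26 to -2.81, both uncalled without the term.

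Within genotypes, the 9 genes rose and fell from embryo to embryo to different degrees. Treml1 was most like the sum of the other 8, with a Pearson r of 0.978 between deviations from the genotype means of log2 CPM (12 libraries, which share these 3 means and, for KE4 against letter M, a single large contrast), and r was 0.978 also over the 8 libraries that are not Gpr124-/-. Itga2b (0.96), Gp9 (0.959) and Gp1ba (0.955) were close to it over all 12 libraries, and had 0.701, 0.895 and 0.837 without the knockout libraries. Clec1b had 0.901 with, and 0.338 without, the knockout libraries. Gp5 (0.579) and Gp1bb (0.482) were the least alike. Without the knockout libraries they had -0.255 and -0.238, weak values that 8 libraries cannot give a direction.

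Of 14503 other genes with at least 1 CPM on average, the 10 most like the summed 9 had r of 0.97 to 0.983 on the same measure. They were Pdlim1, Bcl2l1, Dusp10, Gata1, Gja4, Nfe2, Gfi1b, Syt13, Tuba4a and Arhgap45, and 3 of them were on the megakaryocyte regulator list. Without the knockout libraries the r of these 10 was 0.738 to 0.938. On log2(TPM + 1) in place of log2 CPM, 4 of the 10 stayed among the first 10 (Dusp10, Gata1, Gfi1b and Tuba4a). Gja4, the arterial connexin-37 gene, differed in its genotype change: it had 1049 to 1380 TPM in wild type, 524 TPM in KE4 and 746 to 889 TPM in letter M, with a log2 fold change of -0.74 (edgeR adjusted p = 0.00303) in Gpr124-/-. KE4 was below the letter M embryos for it, as for the platelet genes, and r was 0.911 over the 8 libraries that are not Gpr124-/-.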

How the data were processed

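E15.5 forebrains were digested, and CD31+ CD140b- CD45- 7AAD- cells were sorted by FACS. Per the labels and the study's methods, libraries were made from poly(A) RNA with SMART-Seq V4, a kit that does not mark strand, and sequenced as paired ends. The authors deposited raw counts per gene for each library and 1 table of TPM. Per the submitters' processing notes bcl2fastq 2.17 and mm10 were used. The aligner and counter are not given in the sources used here. Symbols and positions were taken from GENCODE vM21 (49056 of 49315 IDs matched), promoters from RefSeq.

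Counts were fitted with edgeR 4.0.16 (R 4.3.3; filterByExpr by genotype, TMM factors 0.946 to 1.04, quasi-likelihood test, all 12 libraries), with Benjamini-Hochberg adjustment over 16637 genes. Calls needed both a change of over 1 in either direction on the log2 scale and an adjusted p under 0.05. CPM used TMM-scaled library sizes. TPM of single genes were compared by exact permutation. Scripts were tested on simulated data. Alternatives used DESeq2 1.42.0, limma 3.58.1 on log2(TPM + 1) or log2(TPM + 0.1), other filters and factors, the label letter and left-out libraries. The 9 genes and all lists were chosen with earlier results of these data known. Named genes were the 9, list genes by adjusted p or mean TPM, genes overlapping the 9, and the 10 most like their sum; C1qa, C1qb, C1qc, Tyrobp and Selp were singled out after their values were seen. Mkl1 and Ahsp of the lists were not matched. Replicates were separate embryos, described as biological replicates by the study.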

Additional observations from a re-analysis of the deposited data

Results flagged for a closer look

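Of 27 sets of 4 libraries (each of the 9 genes in each genotype) 4 had a library whose gap to the nearest other exceeded Dixon's critical value for 4 samples. Chance alone gives about 1 in 20 for a given set, but the sets share the same libraries and are not independent. Wild-type LE6 was far above the other wild-type embryos for Pf4 (255 TPM), Gp1ba (27 TPM) and Treml1 (70.8 TPM). Gpr124ΔC/ΔC JE3 was far below the others for Clec1b (20.3 TPM). LE6 is the only wild-type embryo of letter L, and its 9 genes summed to 601 TPM against 314 to 363 TPM in the other 3. The Gpr124ΔC/ΔC embryos of letter L, LE2 and LE5, had 160 and 212 TPM of Pf4 against 191 and 175 TPM in JE3 and JE4, 30.3 and 24.7 TPM of Gp1ba against 18.1 and 20.3 TPM, and 61.6 and 62.1 TPM of Treml1 against 47.4 and 49.9 TPM.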

How the results depend on the processing

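The count of called genes in Gpr124-/- against wild type was 7; it was 2 with the letter as a term and 1 without letter M (an alternative added after seeing the data), and 5 to 7 under the other alternatives (6 to 7 with 1 library left out). Against Gpr124ΔC/ΔC it was 6; it was 1 with the letter as a term, 3 by limma on log2(TPM + 1), 3 on log2(TPM + 0.1), 1 by limma without a filter, 0 without letter M and 2 to 7 with 1 library left out (2 without ME1, 3 without ME5 and 3 without JE4). ME1, ME4, ME5, JE3, JE4, LE2 and LE5 each ended at least 1 of those 6 calls. The count for Gpr124ΔC/ΔC against wild type stayed at 0 under all alternatives, 0 to 0 with 1 library left out.

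The ratio of summed CPM, Gpr124-/- over wild type, was 3.48 (2.99 to 4.27 with 1 library left out), but 1.36 within letter K and 1.1 without letter M. Over Gpr124ΔC/ΔC it was 3.24 (2.79 to 3.98 with 1 library left out), but 1.03 without letter M. Gpr124ΔC/ΔC over wild type was 1.07, with 0.834 within letter L, 1.11 within letter J and 1.01 to 1.2 with 1 library left out.

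Directions turned as follows on the log2 scale. In Gpr124-/- against wild type without letter M, Gp1bb was -1.1, Gp5 -0.16 and Clec1b -1.26; Clec1b was -1.23 with the letter and -0.17 to 0.4 with 1 library left out. Against Gpr124ΔC/ΔC without letter M, Gp1ba was -0.3, Gp1bb -0.78, Gp5 -0.15, Treml1 -0.2 and Clec1b -0.83 (-0.78 with the letter). In Gpr124ΔC/ΔC against wild type, Ppbp was -0.15 with the letter (-0.17 to 0.27 with 1 library left out), Gp1bb -1.8 to 0.14, and Gp5, at -0.01, was 0.04 with upper-quartile factors, 0.01 with a mean count of 50, 0.0 in the compared genotypes, 0.06, 0.08 and 0.06 by limma and -0.52 to 0.37 with 1 library left out. The causes were not tested.

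Of the 26 related genes called against Gpr124ΔC/ΔC, 0 were called with the letter as a term and 0 without letter M; by limma on log2(TPM + 1) the receptor list had 5, the granule list 3 and the regulator list 3.

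Over all genes, calls in Gpr124-/- against wild type numbered 1644, with 846 under the letter term, 516 without letter M and 3295 without a fold threshold. In Gpr124ΔC/ΔC against wild type they numbered 320, with 193 by limma without a filter and 680 without a fold threshold. In Gpr124-/- against Gpr124ΔC/ΔC they numbered 766, with 209 under the letter term, 17 without letter M, 1468 without a fold threshold and 506 to 1008 with 1 library left out; by limma they numbered 482 on log2(TPM + 1) and 386 without a filter. The labels carry no replicate number that groups share, so no replicate block was fitted; the letter they share was fitted as a term, with the values above.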
